A study of Mus musculus with 6 samples.

Results

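The mouse genes named *Zfp* followed by a number form a large group of zinc finger genes, and the response of the expressed members to miR-294 was examined in *Dicer1*-null ES cells. A member was a probe whose name starts with ZFP and a number, with *Zfp42* left out. It had to be detected, with a detection score above 0.99 against the negative controls, on at least 3 of the 6 arrays. Members were thus chosen by their name and detection scores. Of 516 such ZFP probes among the 45281 probes of the array, 230 passed, and these probes carry 168 gene names. The names are those of the array design. In the RefSeq annotation of GRCm38.p6, 148 of them are current symbols and 20 are synonyms, among them *Zfp238* (now *Zbtb18*), *Zfp295* (*Zbtb21*), *Zfp828* (*Champ1*) and *Zfp259* (*Zpr1*).

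The cells were feeder-free 129/SvEv ES cells kept with LIF, in which *Ago2* and *Dicer1* had been deleted and a CAG-driven Ago2-myc transgene, introduced as stable clones, supplied Ago2 in both groups. They lack Dicer, the enzyme that cuts mature miRNAs from their precursors. In triplicate, cells received 300 pmol of the miR-294 mimic or of cel-239b, a *C. elegans* control miRNA, together with 1 µg of the GFP plasmid pEGFP-1, and cells positive for GFP were collected by sorting after 24 hr. RNA was hybridised to Illumina MouseWG-6 arrays, 3 per group, and the comparison asks which messages differ when a single ES-cell miRNA is present. The replicates were separate transfections, and whether they came from separate cultures is not given in the sources used here, so that *p*-values measure the spread between these samples, which may be technical.

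Zinc finger proteins of the C2H2 type hold a zinc ion in each finger, and a row of fingers reads a stretch of DNA or, less often, RNA. Many mammalian members also carry a KRAB box, which binds Trim28 (KAP1) and through it recruits the histone methyltransferase Setdb1 and HP1 proteins to silence chromatin. In ES cells such proteins are known for silencing retroviruses and for keeping imprints. A few genes bear the *Zfp* name for fingers of another kind, among them the CCCH fingers of Zfp36 that bind AU-rich elements in mRNA.

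miR-294 pairs with its messages mainly through its seed, and the mature sequence is shown because it is the miRNA whose addition is compared with the control. In RefSeq it lies on the + strand of chr7:3220691-3220712 (GRCm38.p6), and capitals mark the seed, bases 2 to 8 of the 22 bases.
mmu-miR-294-3p: aAAGUGCUucccuuuugugugu
A message with a perfect match to the seed holds AGCACTT. Which ZFP messages hold one was not analysed here.

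The median of the family lay close to that of the array. The median log fold change (miR-294 minus cel-239b, log2 scale) was 0.014 over the 230 ZFP probes and 0.011 over all 14621 probes tested, with a sign for the family that depended on the scaling (-0.00954 with median scaling in place of quantile normalization). Of the ZFP probes, 112 lay below 0. The median log2 signal of the ZFP probes was 7.38, 7.45 and 7.45 on the 3 cel-239b arrays and 7.33, 7.34 and 7.36 on the 3 miR-294 arrays, and that of all probes tested was 8.11 on every array after quantile normalization. The medians of the miR-294 arrays thus lay slightly below those of the cel-239b arrays, while the median over probes of the difference between group means was near 0. The middle part of the ZFP differences was narrow, with quartiles of -0.13 and 0.14 against -0.16 and 0.17 for all probes tested. In all, 166 ZFP probes (72.2%) differed by less than 0.25 in either direction, against 67.2% of all probes tested. Log fold changes of ZFP probes ran from -1.92 to 0.59, and those of all probes tested from -2.45 to 3.22. The 5th percentile was -0.53 for ZFP probes and -0.52 for all, whereas the 95th percentile was 0.34 against 0.46. The lower tail was therefore about as long as that of the array and the upper tail was shorter, a description that was not tested.

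**Figure D1:**
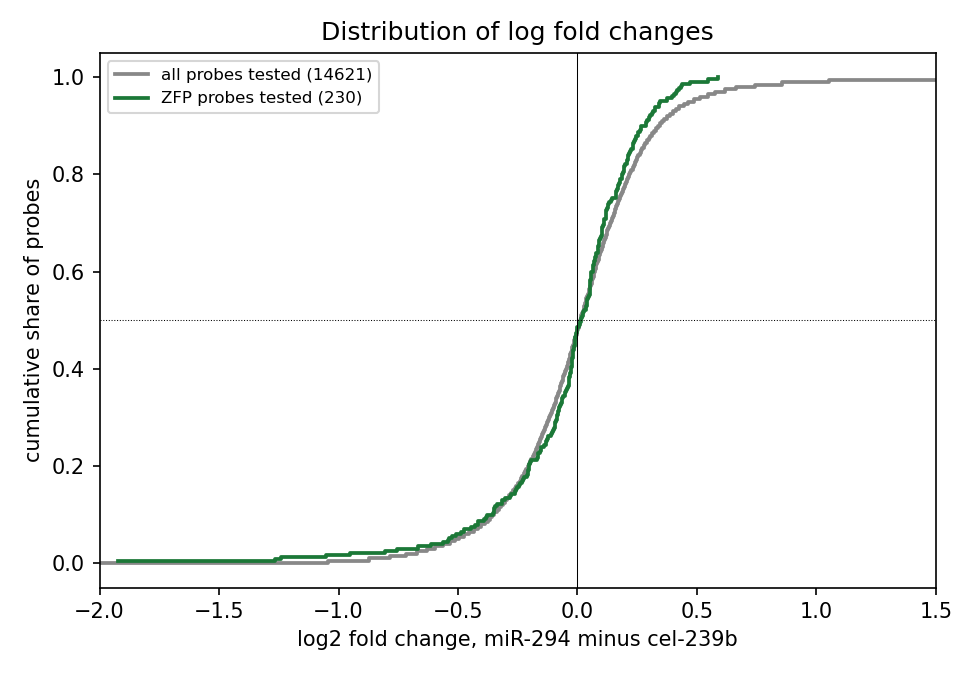
Cumulative share of probes (vertical axis) by log2 fold change, miR-294 minus cel-239b (horizontal axis, drawn from -2 to 1.5), for the 230 ZFP probes and all 14621 probes tested. Both lines cross the middle near 0 (medians of 0.014 and 0.011), and the line of the ZFP probes ends at 0.59.

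In limma's test with Benjamini-Hochberg adjustment over all probes tested, 35 ZFP probes (15.2%) were downregulated at an adjusted *p*-value below 0.05 and 28 (12.2%) were upregulated. Over all probes tested the shares were 16.3% lower and 16% higher. By gene, 29 of the 168 genes (17.3%) had a lower probe and 25 (14.9%) a higher probe, against 19.0% and 18.1% of all 10613 gene names tested. The share of members called was thus near or below the background of the array in both directions. With median scaling, 33 ZFP probes were lower and 14 higher, beside 13.5% and 10.7% of all probes tested. The higher calls numbered 15 without cel-239b replicate 3, 16 without miR-294 replicate 1 and 18 without miR-294 replicate 3, beside 10.9%, 10.1% and 11.9% of all probes tested in the same fits. The 35 lower calls include *Zfp800*, which was detected in the cel-239b group only and had to differ. The downregulated ZFP probes had a median log fold change of -0.43, and 14 of the 35 (40%) fell by over 0.5. The upregulated ones had a median of 0.30, and only 2 of the 28 (7.14%), both probes of *Zfp473*, rose by over 0.5. Among all called probes of the array these shares were 32.8% and 25.4%. A log fold change below -0.5 was found for 14 members (6.09%), beside 5.40% of all probes tested, and one above 0.5 for 2 members (0.87%), beside 4.19%.

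At the stricter cut-off of a *B*-statistic (log odds of a difference) above 5, 5 ZFP probes of 4 genes were lower, a share of 2.17% against 0.793% of all probes tested. These are both probes of *Zfp367* and those of *Zfp800*, *Zfp46* and *Zfp213*. Of these, *Zfp800* had to differ. Over probes detected on at least 1 array of each group, the share was 1.75% (4 of 229) against 0.75% (108 of 14400). No ZFP probe was higher at this limma cut-off, beside 0.677% of all probes tested, and the highest *B*-statistic of an upregulated member was 3.19. After the variance-stabilizing transformation 2 were, beside 1.31%. At an unadjusted *p*-value below 0.05, 47 members (20.4%) were higher and 43 (18.7%) lower, beside 22.7% and 21.6% of all probes tested. Leaving out any single array gave between 0 and 2 lower probes with a *B*-statistic above 5, with 0 without any one of the cel-239b replicates, 1 without miR-294 replicate 1, and 2 without miR-294 replicate 2 or 3. In the same fits, 0.214% to 0.454% of all probes tested were lower with a *B*-statistic above 5, beside 0.793% with all 6 arrays. The lower probes numbered 3 when probes needed detection on 1 array, on every array or on none (beside 0.642%, 0.984% and 0.285% of all probes tested), and 1 with a replicate block (beside 0.178%).

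On 51 ZFP probes (22.2%) every miR-294 array lay below every cel-239b array, and on 46 (20%) every miR-294 array lay above. Over all probes tested these shares were 23.6% and 24.3%. All 63 called members were among these, and a further 34 did not overlap without passing the test. With 3 arrays against 3, an exact permutation test (two-sided) of a single probe gives no *p*-value below 0.10.

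**Figure D2:**
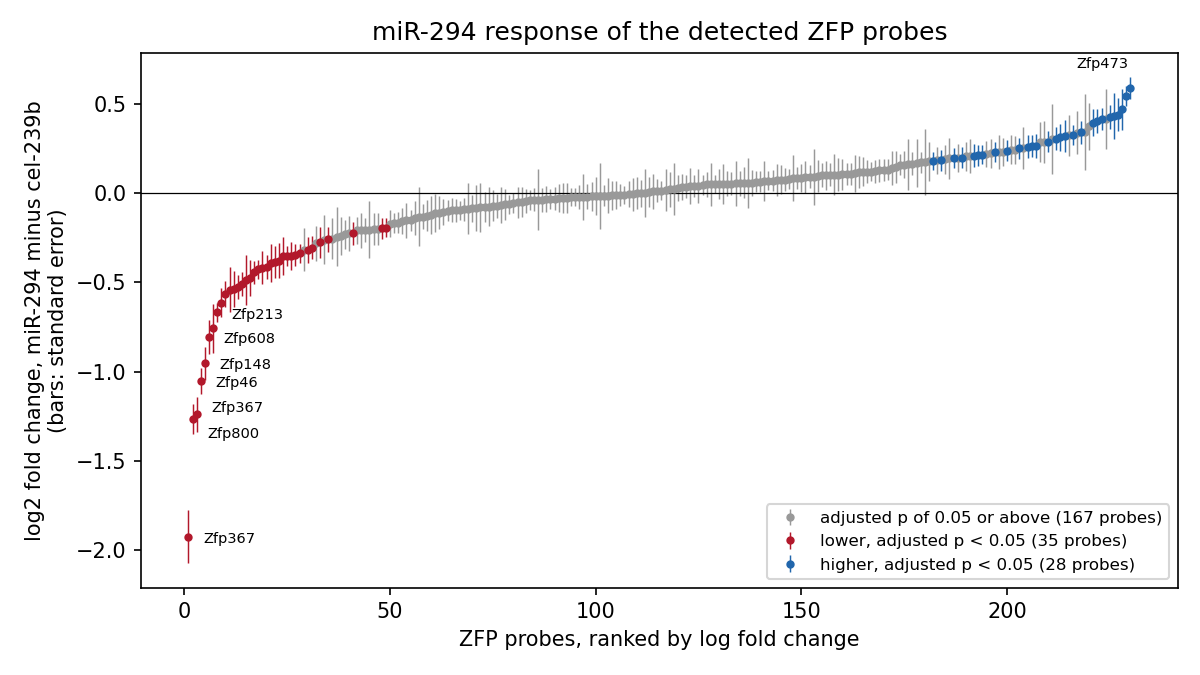
The 230 ZFP probes ranked by log2 fold change (vertical axis, miR-294 minus cel-239b, with standard errors), coloured by the call at an adjusted *p*-value of 0.05. The lower end reaches -1.92 (*Zfp367*) and the upper end 0.59 (*Zfp473*), with 167 probes not called.

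*Zfp367* gave the largest fitted decrease of the family on a probe, and its other probe also fell. The normalised log2 signal of probe 2940632 was 7.79, 7.64 and 7.78 with cel-239b and 5.45, 6.06 and 5.92 with miR-294. Probe 5900605 measured 7.55, 7.68 and 7.69 with cel-239b and 6.24, 6.60 and 6.37 with miR-294. On both probes the groups were far apart, and miR-294 replicate 1 was the lowest array. The log fold change was -1.92 for the first probe (standard error, SE, of 0.15, limma adjusted *p* = 0.000234, *B*-statistic 5.36), a 3.80-fold lower signal, and -1.24 for the second (SE 0.10, adjusted *p* = 0.000247, *B*-statistic 5.27), 2.36-fold lower. The first probe was detected on only 2 of the 3 miR-294 arrays, with deposited signals of 80.3, 111.2 and 105.3 there and of 240.4 to 307.4 on the cel-239b arrays. The size of this decrease therefore depends on the treatment of the background. With no background correction the log fold changes were -1.35 and -0.92, and after a variance-stabilizing transformation -0.79 and -0.57. The call and direction were kept by both probes under every alternative in which they could be tested.

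*Zfp800* had the next fitted value, which rests on miR-294 signals not above background and lay behind that of *Zfp46* with no background correction, an offset of 50 or the variance-stabilizing transformation. Its single tested probe measured 6.56, 6.67 and 6.82 with cel-239b and 5.37, 5.37 and 5.51 with miR-294. It was the only member detected on no miR-294 array, so that it passed the detection rule through the cel-239b arrays alone and had to differ. Its signal was at least 1.99-fold lower, taken against the lowest detected signal of each miR-294 array or its own where that was higher. Since it had to differ, its call supports nothing, although it is counted among the members called lower, which number 34 without it. *Zfp608* was detected on 1 miR-294 array only and measured 6.48, 6.27 and 6.61 against 5.69, 5.55 and 5.70, a log fold change of -0.81 (adjusted *p* = 0.00125) that became -0.235 after the variance-stabilizing transformation. Both values thus rest on signals near background.

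*Zfp46* and *Zfp213* fell from levels well above background. *Zfp46* measured 8.94, 9.01 and 8.90 with cel-239b and 7.90, 7.79 and 8.01 with miR-294, for a log fold change of -1.05 (SE 0.07, limma adjusted *p* = 0.000157, *B*-statistic 6.23). The spread within each group was small beside this difference. *Zfp213* measured 9.46, 9.54 and 9.45 with cel-239b and 8.84, 8.81 and 8.80 with miR-294, giving a log fold change of -0.67 (SE 0.05, adjusted *p* = 0.00027, *B*-statistic 5.07). Its values varied least with the processing among the large decreases, between -0.54 and -0.70.

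*Zfp148* (ZBP-89), a factor that binds GC-rich promoter elements, fell on both probes. Probe 5570632 measured 7.91, 7.90 and 8.06 with cel-239b and 6.84, 7.16 and 7 with miR-294, for a log fold change of -0.95 (limma adjusted *p* = 0.000593). Probe 2810739 measured 8.69, 8.18 and 8.22 against 7.56, 7.70 and 7.56, a log fold change of -0.76 (adjusted *p* = 0.00621), with cel-239b replicate 1 above the other arrays. The groups did not overlap on either probe, and after the variance-stabilizing transformation the first was at -0.52. *Zfp238* (*Zbtb18*), a BTB zinc finger repressor known from neuronal development, fell on 2 of its 3 tested probes. Probe 1690500 measured 8.44, 8.64 and 8.59 with cel-239b and 7.90, 7.85 and 8.07 with miR-294, giving a log fold change of -0.61 (adjusted *p* = 0.002), and probe 4780609 fell by 0.35. The last probe averaged 6.27 ± 0.12 (SD, n = 3) in the controls and 6.20 ± 0.11 with the mimic. It had a log fold change of -0.07 and overlapped. *Zfp282* measured 8.13, 8.36 and 8.20 against 7.65, 7.70 and 7.64, a log fold change of -0.56 (adjusted *p* = 0.00165), and closed the 10 largest decreases.

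The upper end of the family was led by *Zfp473* (ZFP100), a component of the machinery that forms the 3′ ends of histone mRNAs, on both of its probes. Probe 1440450 measured 8.03, 8.13 and 7.98 with cel-239b and 8.60, 8.65 and 8.66 with miR-294, for a log fold change of 0.59 (SE 0.06, limma adjusted *p* = 0.000761). Probe 2070079 measured 8.74, 8.69 and 8.63 against 9.20, 9.29 and 9.22, a log fold change of 0.54 (SE 0.06, adjusted *p* = 0.000834). The arrays of each group lay close together on both probes, and the signals rose 1.5-fold and 1.46-fold.

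The remaining increases were smaller. *Zfp828* (*Champ1*), a protein of chromosome alignment in mitosis, measured 6.95, 6.70 and 6.94 with cel-239b and 7.55, 7.29 and 7.16 with miR-294, giving a log fold change of 0.47 (adjusted *p* = 0.0206). This call was lost without cel-239b replicate 2 (adjusted *p* = 0.0625) and with no detection filter (adjusted *p* = 0.0597). *Zfp131*, a BTB member with a bright signal, measured 10.14, 9.81 and 9.88 against 10.40, 10.32 and 10.43, a log fold change of 0.44 (adjusted *p* = 0.0115). *Zfp105* measured 6.68, 6.49 and 6.60 against 6.78, 6.98 and 7.30, with miR-294 replicate 3 well above the other arrays. Its log fold change of 0.43 (adjusted *p* = 0.0391) became 0.29 without that array (adjusted *p* = 0.062). The call was also lost without control replicate 2 or 3 or mimic replicate 2 (adjusted *p* of 0.0779 to 0.113), with no detection filter (adjusted *p* = 0.108) and with a replicate block (adjusted *p* = 0.0515). *Zfp820*, detected on 1 cel-239b array, *Zfp119*, *Zfp472* and *Zfp825* rose by 0.43, 0.41, 0.40 and 0.40, and *Zfp593*, known from the assembly of the large ribosomal subunit, by 0.34 (adjusted *p* of 0.0029 to 0.00812). On each of these 5 probes the groups did not overlap, and after the variance-stabilizing transformation their log fold changes were 0.12 to 0.20. The other tested *Zfp825* probe was at 0.04 (adjusted *p* = 0.77) and overlapped.

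**Figure D3:**
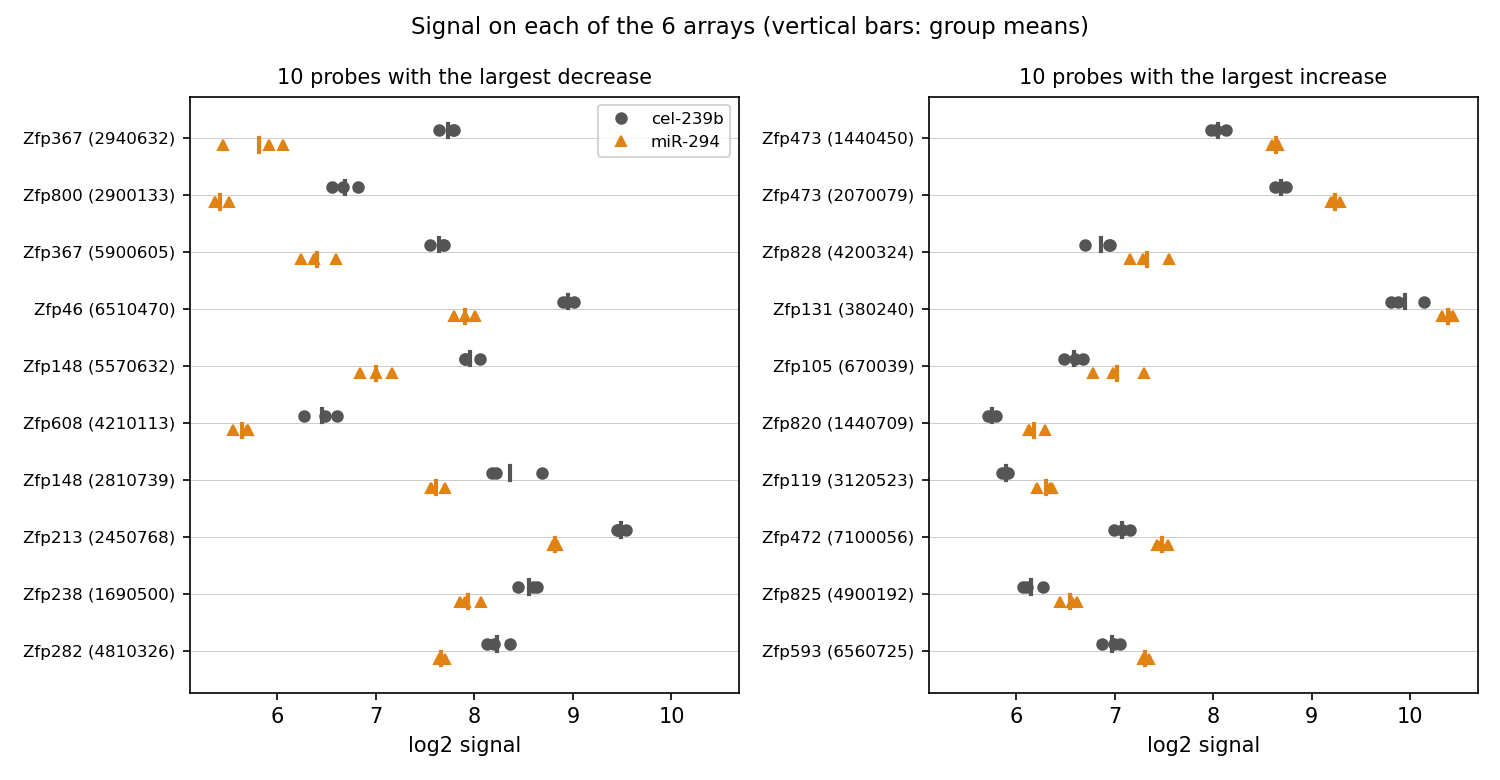
Normalised log2 signal (horizontal axis) on each cel-239b array (circles) and miR-294 array (triangles) for the 10 ZFP probes with the largest decrease and the 10 with the largest increase among called members. The groups do not overlap on any of the 20 probes, which the rule for choosing them required, and their distance is widest for *Zfp367* probe 2940632 (7.74 against 5.81).

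The share of members called differed between levels of brightness. ZFP probes were dim, with a median mean log2 signal of 7.34 against 8.11 for all probes tested, and 44 of them (19.1%) lay above 9, against 35.1% of all. Of the 44 bright members, 4 were lower and 5 were higher (20.5% called in either direction), beside 32.8% of all probes of that brightness. Between 7 and 8, 36.5% of 63 members were called, beside 34.4% of all. Below 6, 3 of 22 members (13.6%) were called, beside 28%. These shares were not tested against each other. At the threshold of the rule, the 6 members detected on exactly 3 arrays had log2 signals averaged over the arrays of 5.56 to 6.05, and the 4 ZFP probes left out with 2 arrays had averages of 5.49 to 5.68. A further 274 ZFP probes were detected on no array. Of the 230 members, 204 were detected on all 6 arrays, and these include 32 of the lower and 26 of the higher calls. In a fit of only the probes detected on all 6 arrays, 17% of all probes were lower and 16.9% higher.

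The brightest member probes had small log fold changes. *Zfp36l1*, an mRNA-binding relative of Zfp36 that speeds mRNA decay, measured 12.92, 13 and 13 with cel-239b and 12.97, 12.89 and 13.04 with miR-294 on probe 5720202. The groups overlapped, and the log fold change was -0.01 (limma adjusted *p* = 0.926), a value whose sign changed with median scaling (0.03). Its probe 3140349 measured 11.87, 11.84 and 11.88 against 11.55, 11.71 and 11.66, a log fold change of -0.23 (adjusted *p* = 0.0293). That call was lost in 9 of 16 alternatives (adjusted *p* of up to 0.287, with median scaling), among them without any one of cel-239b replicates 1 to 3 or miR-294 replicates 1 and 3 (adjusted *p* of 0.0566 to 0.0867). Its dim last probe was at 0.17 (adjusted *p* = 0.359). *Zfp428* measured 11.32, 11.29 and 11.25 against 11.44, 11.28 and 11.41, a log fold change of 0.09, and also overlapped.

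Genes with several probes allow a check within the array. Of the 168 genes, 54 had more than 1 tested probe (46 with 2 probes and 8 with 3), and on 35 of these all probes had the same sign. In 19 genes at least 1 probe was called, and in 18 of them all probes had the same sign. The exception was *Zfp36l1*. No gene was called in both directions, and on 8 genes every tested probe was called. These 8 are *Zfp367*, *Zfp148*, *Zfp704*, *Zfp236* and *Zfp68*, which fell, and *Zfp259*, *Zfp472* and *Zfp473*, which rose. Such counts were not made for the other genes of the array, so that no background stands beside them. Both *Zfp68* probes fell by nearly the same amount. Probe 1070053 measured 7.58, 7.58 and 7.56 against 7.14, 7.18 and 7.11, and probe 3170075 measured 7.33, 7.37 and 7.35 against 6.91, 6.84 and 7.05, log fold changes of -0.43 and -0.42. The distance between the probes of a gene had a median of 0.12. Probe sequences were not used here, so that cross-hybridisation between similar ZFP genes, whose finger sequences are repetitive, was not tested.

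**Figure D4:**
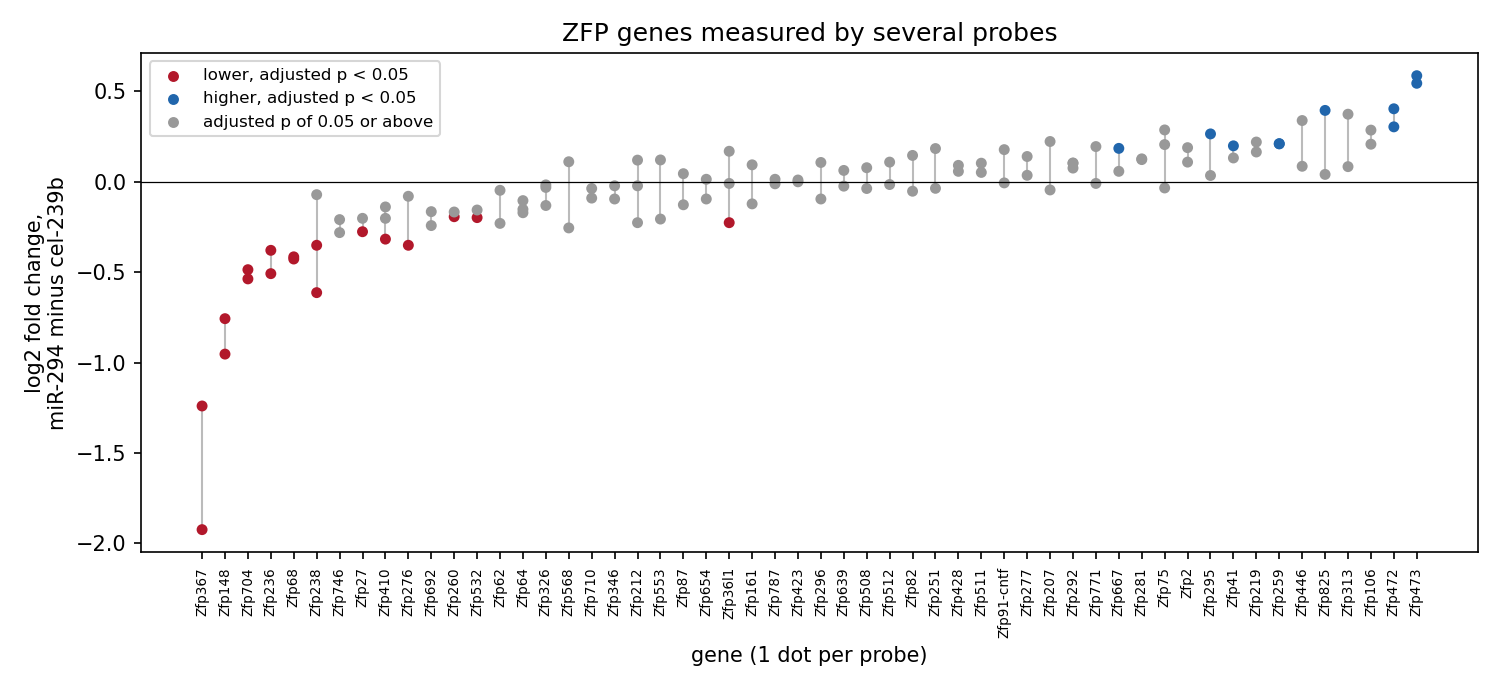
Log2 fold change (vertical axis, miR-294 minus cel-239b) of every probe of the 54 ZFP genes with several tested probes, joined by a line within a gene and coloured by the call at an adjusted *p*-value of 0.05. The probes of *Zfp367* lie at -1.92 and -1.24 and those of *Zfp473* at 0.54 and 0.59, and *Zfp36l1* is the gene with a called probe and probes on both sides of 0.

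The members were also grouped by role, and their counts are read against the 16.3% of all probes tested that were lower and the 16% that were higher. Of 11 listed zinc finger proteins that act on RNA or ribosomes, 8 were tested by 15 probes, of which 2 were lower (13.3%), 3 were higher (20%) and 10 were not called, with a median log fold change of -0.01. *Zfp36* (tristetraprolin), which binds AU-rich elements and promotes the decay of cytokine mRNAs, measured 8.88, 8.98 and 8.84 with cel-239b and 8.44, 8.28 and 8.40 with miR-294, for a log fold change of -0.52 (limma adjusted *p* = 0.00169). Its groups were well separated and its call held under all 16 alternatives. The increases of this group were those of *Zfp473* and *Zfp593*.

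Of 12 listed factors known for the ES-cell state, imprints or the silencing of retroviruses, 9 were tested by 15 probes, of which 1 was called lower (6.67%), with a median of 0.11. That probe belongs to *Zfp410*, an activator of the *Chd4* gene. It measured 6.32, 6.46 and 6.57 with cel-239b and 6.15, 6.13 and 6.11 with miR-294, giving a log fold change of -0.32 (adjusted *p* = 0.0157) that was not called after the variance-stabilizing transformation (adjusted *p* = 0.0621). The other probes of *Zfp410* were at -0.14 and -0.20 and were not called, and the 3 probes of *Chd4* were at 0.39, 0.19 and -0.07 with adjusted *p*-values of 0.284 to 0.378. *Zfp57*, which keeps imprints methylated, measured 9.24, 9.25 and 9.15 against 9.53, 9.29 and 9.54, a log fold change of 0.24 that missed the threshold (adjusted *p* = 0.0561), without overlap between the groups. *Zfp809*, which recruits Trim28 to retroviral DNA, was at 0.32 (adjusted *p* = 0.0683), and *Zfp281*, a factor of the exit from naive pluripotency, at 0.12 and 0.13 (adjusted *p* of 0.184 and 0.18).

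Of 6 listed members with a BTB domain, through which such proteins pair, 4 were tested by 8 probes, of which 2 were lower and 2 higher (25% each). The called probes were the 2 lower ones of *Zfp238* and the higher ones of *Zfp131* and *Zfp295*. The member *Zfp50* (now *Zbtb25*) was not on this list, was at 0.13 and was not called (adjusted *p* = 0.154). *Zfp295* (*Zbtb21*) measured 7.72, 7.75 and 7.63 against 8.03, 7.87 and 8 on probe 380707, a log fold change of 0.27 (adjusted *p* = 0.0212). This probe was not called without control replicate 3 or mimic replicate 1 or 3 (adjusted *p* of 0.0638 to 0.0722), nor with median scaling (adjusted *p* = 0.124). The other tested *Zfp295* probe was at 0.035 (adjusted *p* = 0.743) and overlapped. Of 6 listed members with fingers of another kind, 4 were tested by 6 probes, of which 3 (50%) rose. All 6 probes had a log fold change above 0 (0.08 to 0.37). This list left out *Zfp36* (-0.52, called lower) and its relative *Zfp36l1* (-0.23, called lower, -0.01 and 0.17), which stood in the RNA group. It therefore does not describe every member with such fingers. *Zfp259* (*Zpr1*), which binds the translation factor eEF1A, measured 10.88, 10.87 and 10.75 against 11.01, 11.11 and 11.01 on probe 3290091, and 7.31, 7.44 and 7.40 against 7.59, 7.61 and 7.58 on probe 7570474. Both log fold changes were 0.21 (adjusted *p* of 0.0397 and 0.0298). *Zfp330*, a nucleolar protein, rose by 0.24 (adjusted *p* = 0.0194). The *Zfp259* calls were lost in 9 and 7 of 16 alternatives and that of *Zfp330* in 5 (adjusted *p* of up to 0.215), and for *Zfp330* these include leaving out control replicate 2 or 3 or mimic replicate 2 or 3 (adjusted *p* of 0.0513 to 0.0618). For *Zfp259*, probe 3290091 was not called without any one array other than cel-239b replicate 1, nor probe 7570474 without any one array other than cel-239b replicate 2 (adjusted *p* of 0.0657 to 0.115).

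Among 16 other members with a known role, 10 were tested by 16 probes, of which 4 were lower (25%) and 12 were not called, with a median of -0.13. Besides *Zfp148*, these include *Zfp532*, *Zfp592* and *Zfp687*, whose proteins form a complex with the chromatin reader Zmynd8. *Zfp687* measured 6.10, 6.43 and 6.06 with cel-239b and 5.74, 5.77 and 5.90 with miR-294, for a log fold change of -0.39 (adjusted *p* = 0.0283), and lost its call in 4 of 16 alternatives. These include leaving out miR-294 replicate 1 or 2 (adjusted *p* of 0.0822 and 0.0753) and the variance-stabilizing transformation, with a log fold change of -0.11 (adjusted *p* = 0.0703). *Zfp532* measured 10.58, 10.70 and 10.56 against 10.45, 10.40 and 10.40, a log fold change of -0.20 (adjusted *p* = 0.0443), and lost its call without any one of the 6 arrays (adjusted *p* of 0.0574 to 0.131). The second *Zfp532* probe and *Zfp592* were at -0.16 and -0.21 with adjusted *p*-values of 0.132 and 0.0681. *Zfp423*, a factor of adipocyte and cerebellar development, was at 0.00 and 0.01.

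KRAB zinc finger proteins silence chromatin through cofactors and enzymes that were examined as a list. Of its 32 genes, 26 were tested by 44 probes, of which 4 were lower (9.09%, beside 16.3% of all probes tested), 11 were higher (25%, beside 16%) and 29 were not called, with a median of 0.12. *Trim28* itself was at 0.09 and was not called. *Setdb1* rose by 0.21 (adjusted *p* = 0.0255), and *Mbd3*, a subunit of the NuRD complex, by 0.36 (adjusted *p* = 0.00767). *Cbx3*, an HP1 protein, rose by 0.54 on 1 probe (adjusted *p* = 0.0209) and was at 0.33 on the other, which overlapped (adjusted *p* = 0.306). The histone chaperone *Rbbp4* rose by 0.42 on 2 probes (adjusted *p* of 0.0164 and 0.0208) and was at 0.40 on another (adjusted *p* = 0.0657). *Suv39h1*, a methyltransferase for lysine 9 of histone H3, measured 7.88, 7.99 and 8 with cel-239b and 7.17, 6.97 and 7.07 with miR-294, giving a log fold change of -0.88 (limma adjusted *p* = 0.000274, *B*-statistic 5.04). *Mta1* fell by 0.38 (adjusted *p* = 0.00676), and probes of *Rbbp7* were called in opposite directions (0.44 and -0.28). The 11 higher calls were 4 without cel-239b replicate 2, 3 without cel-239b replicate 3, 3 without miR-294 replicate 1 and 5 without miR-294 replicate 2, beside 11.1%, 10.9%, 10.1% and 11.3% of all probes tested in the same fits.

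Other zinc finger families were set beside the ZFP probes. The 22 *Zbtb* probes had 4 lower and 3 higher calls and a median of -0.02 (18.2% and 13.6%, beside 16.3% and 16% of all probes tested), the 11 *Zscan* and *Zkscan* probes 2 and 2 (18.2% each) with a median of -0.09, and the 15 *Klf* probes 4 and 4 (26.7% each) with a median of -0.16. Their lowest values were -1.06 (*Zbtb41*), -1.25 (*Zkscan1*) and -0.75 (*Klf6*), and the highest was 0.83 (*Klf4*, a pluripotency factor). The families were not tested against each other.

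Many ZFP genes lie in clusters that arose by duplication. By RefSeq gene order, 20 pairs of members were direct neighbours, of which 9 (45%) had log fold changes of the same sign, whether called or not, beside 1622 of 2978 adjacent pairs of all tested genes (54.5%). In 2 neighbouring pairs both genes were called, a count that was not made for all tested genes. *Zfp637* and *Zfp239* both rose (0.31 and 0.26), while *Zfp61* fell by 0.35 and its neighbour *Zfp94* rose by 0.26.

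Over the 230 ZFP probes, Pearson correlations of log2 signal were 0.991 to 0.994 between arrays of a group and 0.968 to 0.978 between groups, as a description across probes, which are not independent replicates. The probes for *Dicer1*, detected on every array, overlapped between the groups (means of 6.18 and 6.35 with cel-239b, and 6.20 and 6.27 with miR-294). Whether they lie in the deleted part is not given in the sources used here, so that they do not check the genotype. Of 9 listed ES-cell markers, 8 were tested by 12 probes, of which 4 were higher (33.3%) and 1 lower (8.33%), beside 16% and 16.3% of all probes tested. Both *Nanog* probes (0.19 and 0.62), *Esrrb* (0.34) and *Zfp42* (0.22) rose, and *Tdgf1* fell by 0.39. The probes of *Pou5f1* (0.12 and 0.04), *Sox2* (0.31 and -0.32), *Dppa5* (0.049 and 0.004) and *Utf1* (-0.11) were not called. The summed deposited signal of the listed ES-cell markers was 110500 to 129300 with cel-239b and 120500 to 131300 with miR-294. Markers of other cells were mostly not detected. Among fibroblast markers *Col1a1*, *Col1a2*, *Lum* and *Postn* were detected on no array, 1 of 4 *Dcn* probes was detected on 1 miR-294 array, and *Thy1* was detected on the 3 miR-294 arrays and no cel-239b array. Having passed through that group *Thy1* had to differ, and its signal was at least 1.77-fold higher. The summed deposited signal of the list was 771.5 to 837.7 with cel-239b and 796 to 855.8 with miR-294. Among endoderm markers *Gata4*, *Gata6*, *Sox17*, *Foxa2* and *Pdgfra* were detected on no array and both tested *Sox7* probes rose (0.73 and 0.56), with sums of 909.7 to 1029 and 988.6 to 1076. Their part in the ZFP values was not tested. In a bulk sample, fewer cells that express a gene and less RNA per cell cannot be told apart.

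The signals were also processed in 5 other ways. Across these, the sign of each of 8 probes drawn from both ends of the family was kept, while the size of the decreases of dim probes varied more than that of bright ones. For *Zfp367* probe 2940632 the log fold change ran from -0.79 to -1.96 and for *Zfp213* from -0.54 to -0.70, while *Zfp473* probe 1440450 ran from 0.41 to 0.59.

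**Figure D5:**
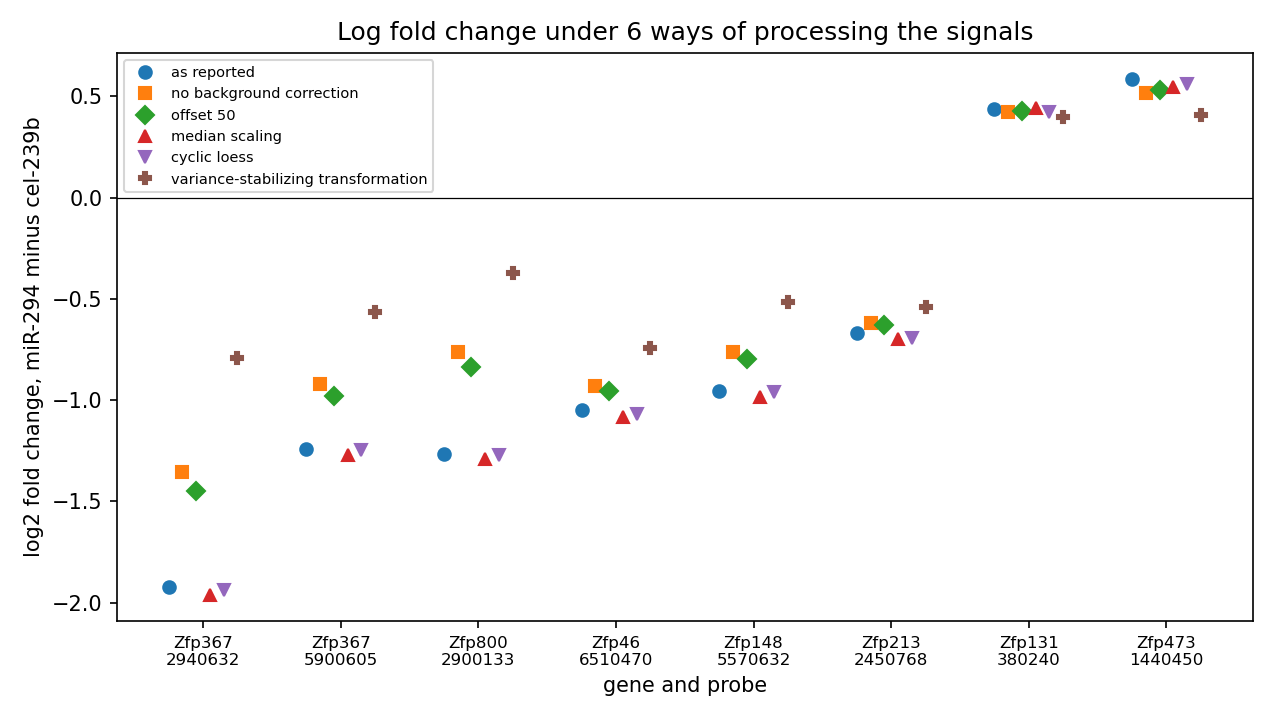
Log2 fold change (vertical axis, miR-294 minus cel-239b) of 8 ZFP probes from both ends of the family under 6 ways of processing the same signals. The variance-stabilizing transformation gives the smallest decreases (-0.79 for *Zfp367* probe 2940632 and -0.37 for *Zfp800*), and no probe changes sign.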

How the data were processed

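For each probe and array the authors deposited a signal intensity averaged over beads, exported by GenomeStudio 1.0.6 without normalization. The deposited columns also hold the bead standard deviation (an intensity), how many beads were read (10 to 155) and a detection score, taken here as 1 minus the detection *p*-value. A further 24 deposited columns with summaries per sample were not used.

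In R 4.3.3 with limma 3.58.1, background was corrected by normexp from the detection *p*-values, with an offset of 16, followed by quantile normalization and log2 transformation. Probes detected at *p* below 0.01 on 3 or more arrays entered lmFit and eBayes (prior share 0.01), without a block, and *p*-values were adjusted over all 14621 probes. The limma fit was tried on simulated normal values with added differences, and the earlier steps on the deposited signals with a rescaled array. The number of arrays limits the precision.

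Named probes are those of *Zfp367*, the 10 largest decreases and 10 largest increases among called probes without overlap, the 3 brightest, and members of the role lists. *Zfp50*, *Zfp68*, *Zfp637*, *Zfp239*, *Zfp61*, *Zfp94*, *Zfp704*, *Zfp236* and the genes of other lists and families were named after their values were seen. The members and lists were chosen with earlier results of these data known. Alternatives were no background correction, an offset of 50, cyclic loess, median scaling, a transformation that stabilizes the variance from bead standard deviations, other detection filters, a replicate block, array weights, an adjusted *p*-value below 0.01, 1 probe per gene, and each array left out. Detection in each group was added after seeing the data. The planned count of fingers and KRAB boxes per protein was not run, because protein sequences were not used here.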

Additional observations from a re-analysis of the deposited data

How the results depend on the processing

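Of the log fold changes of named probes under the alternatives, 444 kept direction and call, 57 kept direction but lost the call, and 4 changed sign. The 4 belong to *Zfp36l1* probe 5720202, which was never called (0.03 with median scaling, 0.006 without cel-239b replicate 2 and also without replicate 3, and 0.028 without miR-294 replicate 2, in a range of -0.045 to 0.028 over the arrays left out). Median scaling gave 14 upregulated ZFP probes in 13 genes and a family median of -0.00954, beside 13.5% lower and 10.7% higher among all probes tested, and cyclic loess gave a family median of 0.00258. The variance-stabilizing transformation gave 2 upregulated ZFP probes with a *B*-statistic above 5, beside 1.31% of all probes tested. It also gave 8 lower probes among the 44 of the cofactors, beside 17.5% of all probes tested. The downregulated ZFP probes with a *B*-statistic above 5 numbered 3 with detection on at least 1 array, 3 with all 6 and 3 with no filter. With no filter, 5 of 68 cofactor probes were higher, beside 4.12% of all probes tested. At an adjusted *p*-value below 0.01, 19 ZFP probes were lower and 9 higher (beside 8.71% and 7.11% of all probes tested), in 15 and 8 genes. Of the 44 cofactor probes, 2 were lower and 1 was higher at that threshold. Leaving out each array gave 25 to 33 lower and 15 to 33 higher ZFP probes, in 21 to 28 and 13 to 29 genes, beside 11.1% to 15.9% lower and 10.1% to 16.9% higher of all probes tested. The higher probes numbered 15 without cel-239b replicate 3, 16 without miR-294 replicate 1 and 18 without miR-294 replicate 3. The family median was 0.0038 to 0.0331, the lower probes with a *B*-statistic above 5 numbered 0 to 2, and the cofactor calls were 3 to 5 lower and 3 to 13 higher. Same-numbered arrays correlated at 0.139, -0.078 and 0.141 in their deviations from the group means, and differently numbered arrays at -0.204 to 0.079. With 3 arrays per group, these values cannot decide whether the numbers pair the arrays. With a replicate block, 32 ZFP probes were lower and 25 higher, beside 14.8% and 14.4% of all probes tested, and 1 had a *B*-statistic above 5, beside 0.178%. The log fold changes of *Zfp367* probe 2940632, *Zfp800* and *Zfp608* moved further with the variance-stabilizing transformation than without background correction, and the causes were not tested.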
